A study of Mus musculus with 14 samples.

Results

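The collagen genes and a set of fibrosis-related matrix genes were followed in RNA of whole kidneys from 18-week-old females of the outbred CD-1 stock of mice. The set held every protein-coding gene with a collagen chain symbol, together with fibronectin (Fn1), versican (Vcan), lumican (Lum), decorin (Dcn), biglycan (Bgn), periostin (Postn), Sparc, Lox and Loxl1 to Loxl4. Of 56 such genes, 52 had more than 10 counts over the 14 libraries and were kept, out of 22339 genes over that limit, and 40 of the 52 were collagen chains. Col10a1, Col19a1, Col9a1 and Col9a2 had 10 counts or fewer in all and were left out. The rule itself used only symbols and total counts, but it was set with earlier results of these data known.

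There were 4 groups of wild-type mice. Term mice without diabetes (T-ND, n = 4) and preterm mice without diabetes (PT-ND, n = 3) were compared with term mice made diabetic with streptozotocin (T-D, n = 4) and preterm mice made diabetic with the same agent (PT-D, n = 3). Streptozotocin destroys the insulin-producing beta cells of the pancreas, and the same treatment stands behind diabetes in both diabetic groups. Preterm pups were also delivered by Caesarean and nursed by foster mothers given acepromazine, so preterm birth stands for all of these here. Some PT-D mice received streptozotocin a second time, and the sources used here do not say whether the sequenced mice were among them. Mice of the study were given cationic ferritin for imaging before the kidneys were taken. Each library was made from the whole kidney tissue of 1 mouse, so fewer cells of a type and less RNA per cell cannot be told apart.

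Collagens are triple-helical proteins built from alpha chains, each from its own gene. Collagen IV forms the sheet-like network of basement membranes. In the kidney the alpha1 and alpha2 chains are widespread and fill the mesangial matrix, while the alpha3, alpha4 and alpha5 chains, made by podocytes, form the mature glomerular basement membrane. Collagens I and III are fibrillar collagens of the interstitium, where fibroblasts deposit them in fibrosis together with fibronectin, and decorin, lumican and biglycan bind to or regulate such fibrils. Lysyl oxidases cross-link the deposited chains.

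The chain genes of collagen IV lie in head-to-head pairs, and the sequences at their starts are shown because Col4a1 and Col4a2 carried the most stable difference between groups. In the GENCODE annotation of build GRCm39, Col4a1 lies at chr8:11248423-11362826, minus strand, and Col4a2 at chr8:11362471-11499287, plus strand. Their annotated main transcripts start at positions 11362826 and 11362509 of chromosome 8 and run past each other by 318 bases. Col4a3 and Col4a4 start at positions 82564697 (plus strand) and 82564800 (minus strand) of chromosome 1, with 104 bases in common. Col4a5 and Col4a6, on chromosome X, start 1281 bases apart and also point away from each other. A CCAAT motif lay 140 bases upstream of the Col4a1 start and 173 bases upstream of the Col4a4 start, in both cases read on the opposite strand as ATTGG. Another lay 130 bases upstream of the Col4a5 start, on the strand of that gene. For Col4a1 and Col4a4 the 25 bases around the motif, 5′ to 3′ on the strand of the named gene and with the motif in capitals, were as follows.
Col4a1, chr8:11362957-11362981, minus strand: cttgcccgggATTGGcgagccaagg
Col4a4, chr1:82564964-82564988, minus strand: cgggacacagATTGGagaggccccg

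The 250 bases before the start site were searched on both strands in 16165 promoters, counting any overlap. The CCAAT box was found in 35.4% of them and in 16 of the 52 matrix genes (30.8%). The GC box, spelled GGGCGG, was found in 44.7% and in 28 of 52 (53.8%). The TATA box, searched as TATAAA, was found in 8.28% and in 5 of 52 (9.62%). The window is shown for 3 genes where it holds no annotated exon and whose levels are described further on. Col14a1 and Col15a1 rose in PT-D against T-ND, and Col6a6 had its lowest counts in the preterm groups. Capitals mark matches to the motifs on either strand. In Col14a1 the TATA and CCAAT matches adjoin on the opposite strand, 17 and 12 bases before the start, and the Col6a6 window held none of the 3 motifs.
Col14a1, chr15:55170890-55171139, plus strand: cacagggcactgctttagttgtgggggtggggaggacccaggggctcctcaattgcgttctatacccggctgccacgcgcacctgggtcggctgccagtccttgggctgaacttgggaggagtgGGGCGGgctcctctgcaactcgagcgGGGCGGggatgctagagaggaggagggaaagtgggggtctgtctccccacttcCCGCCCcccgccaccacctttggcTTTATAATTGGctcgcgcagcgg
Col15a1, chr4:47207332-47207581, plus strand: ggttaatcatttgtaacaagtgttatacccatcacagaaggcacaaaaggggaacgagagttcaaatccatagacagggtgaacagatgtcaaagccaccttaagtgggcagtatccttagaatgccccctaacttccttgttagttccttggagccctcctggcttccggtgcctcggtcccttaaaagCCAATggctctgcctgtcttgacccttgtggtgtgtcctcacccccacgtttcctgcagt
Col6a6, chr9:105705562-105705811, minus strand: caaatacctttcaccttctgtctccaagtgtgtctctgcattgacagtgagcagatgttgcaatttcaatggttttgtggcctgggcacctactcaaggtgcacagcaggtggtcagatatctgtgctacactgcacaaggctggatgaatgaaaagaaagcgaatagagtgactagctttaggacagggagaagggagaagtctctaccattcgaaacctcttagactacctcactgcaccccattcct

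The libraries held 16697246 to 28673176 counts on genes. The matrix genes took 0.108% to 0.17% of these in T-ND, 0.0799% to 0.197% in T-D, 0.118% to 0.208% in PT-ND and 0.214% to 0.266% in PT-D, so that every PT-D library lay above every other library. T-D replicate 4 stood apart: it was the lowest library for 15 of the 52 genes, and the median of the genes lay 0.763 below their mean over libraries on the log2 scale. It also had the fewest genes with a count (19589) and the lowest summed podocyte (3842), endothelial (5210) and proximal tubule markers (121600). Its sums of leukocyte (4841) and red blood cell markers (20020) were the highest. PT-D replicates 2 and 3 were the highest library for 17 and 10 genes, while PT-D replicate 1 was the highest for 6 and the lowest for 6. On the same log2 scale, the medians of the genes in PT-D replicates 1, 2 and 3 were −0.126, 0.709 and 0.584. The share of counts is a sum and follows the genes with most counts, Col4a1 first. In PT-D replicate 1 it was high although the median of the genes lay below their mean. Proximal tubule markers, which define most of the kidney cortex, had summed normalized counts of 148300 to 182500 in T-ND and 121600 to 186900 in T-D. The sums were 174400 to 190800 in PT-ND and 144700 to 179300 in PT-D. Of the 8 markers, 5 had a fitted log2 fold change above 0 in PT-D against T-ND and 3 below. Aqp1, named after its values were seen, was lowest in the PT-D libraries (10130 to 15284, against 16054 or more elsewhere). By histology, the study reports a lower proximal tubule fraction in PT-D than in T-ND or T-D. The names of 5 libraries (replicates 1 and 2 of T-ND, replicate 1 each of T-D and PT-D, and replicate 2 of PT-ND) end in the suffix a, which the sources used here do not explain.

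As a sum of counts, preterm diabetic kidneys held more of the matrix transcripts than term kidneys without diabetes, with 0.214% to 0.266% of counts against 0.108% to 0.17%. The genes that rose were those of the basement membrane chains Col4a1, Col4a2 and Col15a1, of the fibril-associated Col14a1 and of fibronectin. The question of this comparison was the joint effect of preterm birth and diabetes. A gene was called when its adjusted p was under 0.05 and its log2 fold change was above 1 or below −1 (edgeR quasi-likelihood test, two-sided, Benjamini-Hochberg adjustment over 22310 genes). These were the 5 of 52 genes that rose, and none fell. That is 9.62% called against 1.45% of all genes, of which 0.995% were called higher and 0.453% lower. Without the limit on fold change, 7 of 52 passed, and the other 2 were Col18a1 and Sparc, against 2.76% of all genes. The fitted log2 fold change was above 0 in 41 of 52 genes (78.8%, against 51.9% of all genes), with a median of 0.55 against 0.03 for all genes. At an unadjusted p under 0.05, 22 genes were higher and 3 lower, against 12.6% and 11.6% of all genes. All 6 collagen IV genes, all 6 fibril-associated collagen genes and 10 of 11 fibrillar collagen genes were fitted higher, with class medians of 0.585, 0.73 and 1.29. Of the other classes, 4 of 6 collagen VI genes, both multiplexins, 1 of 4 transmembrane collagens, 3 of 5 other collagens, 2 of 3 glycoproteins, 3 of 4 proteoglycans and 4 of 5 lysyl oxidases were fitted higher. All 3 PT-D libraries lay above all 4 T-ND libraries for 15 of the 52 genes, as for 12% of all genes, and below them for 2, as for 11.2%.

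These calls rested on most of the libraries at once. Without T-ND replicate 1, T-ND replicate 4, PT-D replicate 2 or PT-D replicate 3 none of the 52 genes was called by edgeR, without T-ND replicate 2 only Fn1 was, and without T-ND replicate 3 the count was 10. The fold changes of the 5 called genes stayed between 0.80 and 1.71 on the log2 scale over these refits.

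**Figure D1:**
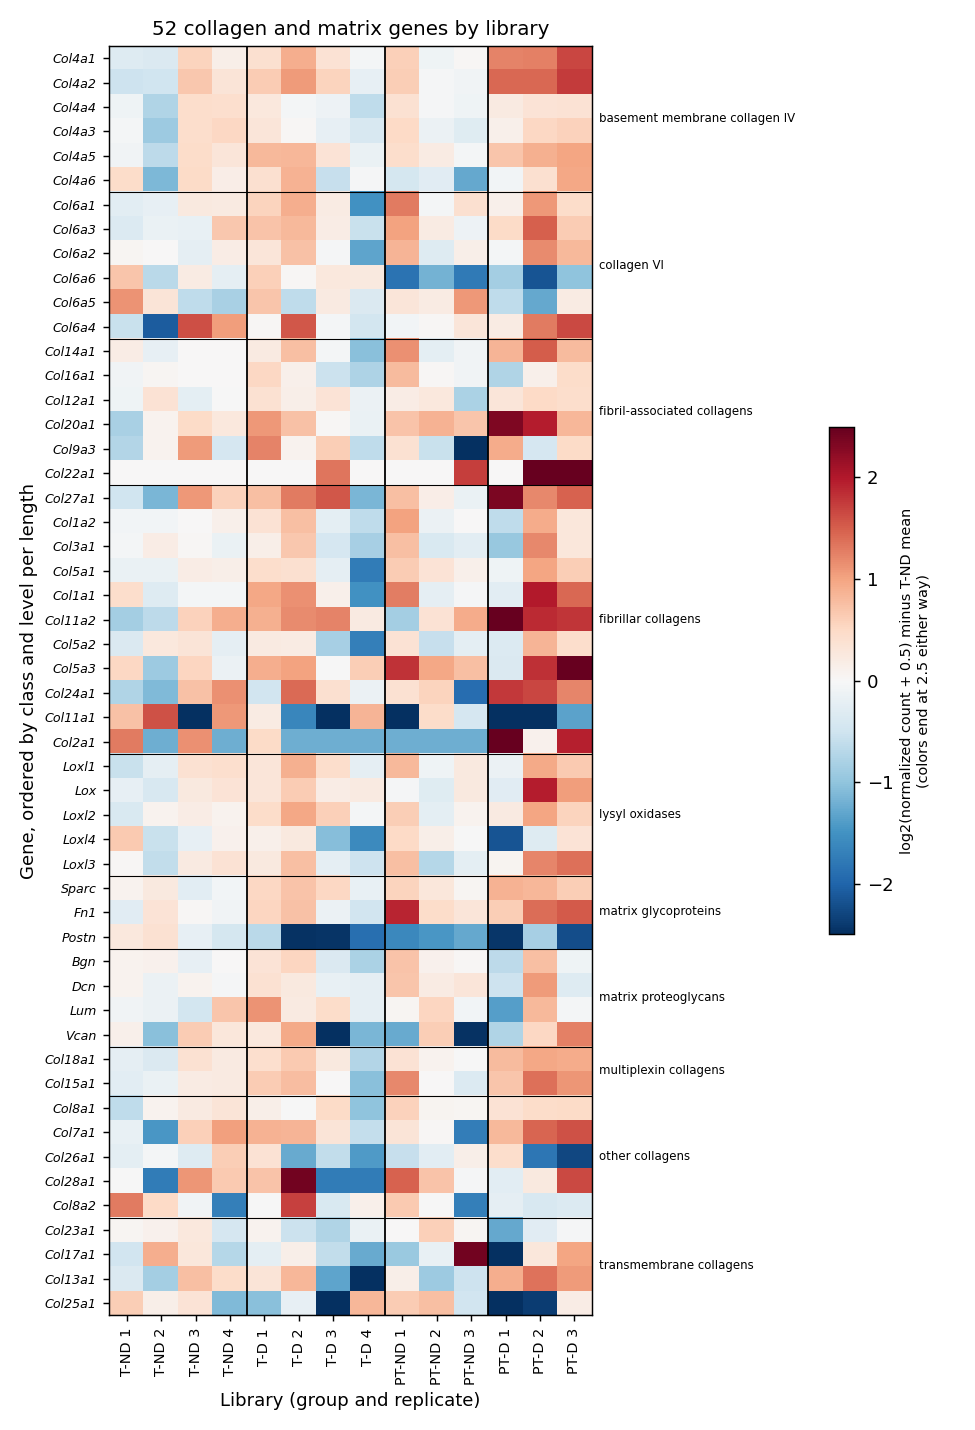
Each row is 1 of the 52 genes and each column 1 of the 14 libraries, and the color gives log2(normalized count + 0.5) minus the T-ND mean, with white at 0. The PT-D columns are red across most rows of collagen IV, the multiplexins and Fn1, the Postn row is blue in all groups but T-ND, and the Col6a6 row is blue in both preterm groups.

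Collagen IV led the set in level. Over the 14 libraries the mean normalized count per kilobase of merged exons was highest for Col4a1 (758), followed by Sparc, a collagen-binding glycoprotein, at 716, and Bgn, a small proteoglycan, at 527. Col4a2 (463), Col18a1 (379), Col4a4 (333) and Col4a3 (311) came next on the same scale. These are all genes of basement membranes. The fibril-associated Col14a1 stood at 117 per kilobase, Loxl1 at 106 and the fibrillar Col27a1 at 85.5, each the highest of its class. Dcn (59.3), Col1a2 (52.4), Fn1 (51.9) and Col4a5 (51.7) followed. Col6a1 (39.8), Col8a1 (18.6) and Col23a1 (10.9) were the highest of collagen VI, of the collagens outside the other classes and of the transmembrane collagens. Col1a1 stood at 14.8 per kilobase, below Col1a2 and below Col3a1 at 39.5.

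Col4a1 and Col4a2, whose products join as a trimer of 2 alpha1 chains and 1 alpha2 chain, rose in PT-D. Col4a1 had normalized counts of 3011, 2920.0, 5517 and 4159.9 in T-ND, 4978, 7096, 4842 and 3641 in T-D, 5702, 3509.5 and 3864 in PT-ND and 8849, 9081 and 11989 in PT-D. The 3 PT-D libraries were the 3 highest of the 14 and overlapped with no other group, while the other 3 groups overlapped with each other. The mean was 9973 ± 1749.9 (SD, n = 3) in PT-D and 3902 ± 1216 (SD, n = 4) in T-ND, and log2 fold change was 1.35 (SE 0.23, adjusted p = 0.027). Against PT-ND the log2 fold change was 1.19 (SE 0.21, adjusted p = 0.00807).

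Col4a2 followed the same order, with 1454, 1468, 3308 and 2605 in T-ND, 3204, 4349, 3045 and 1787 in T-D, 3174, 2037 and 1952 in PT-ND and 5635, 5597 and 6958 in PT-D. Again every PT-D library lay above every other one. Its log2 fold change was 1.45 (SE 0.28, adjusted p = 0.0327) against T-ND and 1.34 (SE 0.21, adjusted p = 0.00508) against PT-ND. Against PT-ND, Col4a1 and Col4a2 were called in every alternative fit and without any of the 6 libraries. Against T-ND, both were called in every alternative fit that kept all 7 libraries, and leaving out libraries moved their adjusted p to between 0.00497 and 0.119. Without PT-D replicate 1, Col4a1 kept its call and Col4a2 had an adjusted p of 0.0577. Read counting here ignores strand and leaves out reads on more than 1 gene, and 4.9% of the exon length of each gene overlaps another gene.

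**Figure D2:**
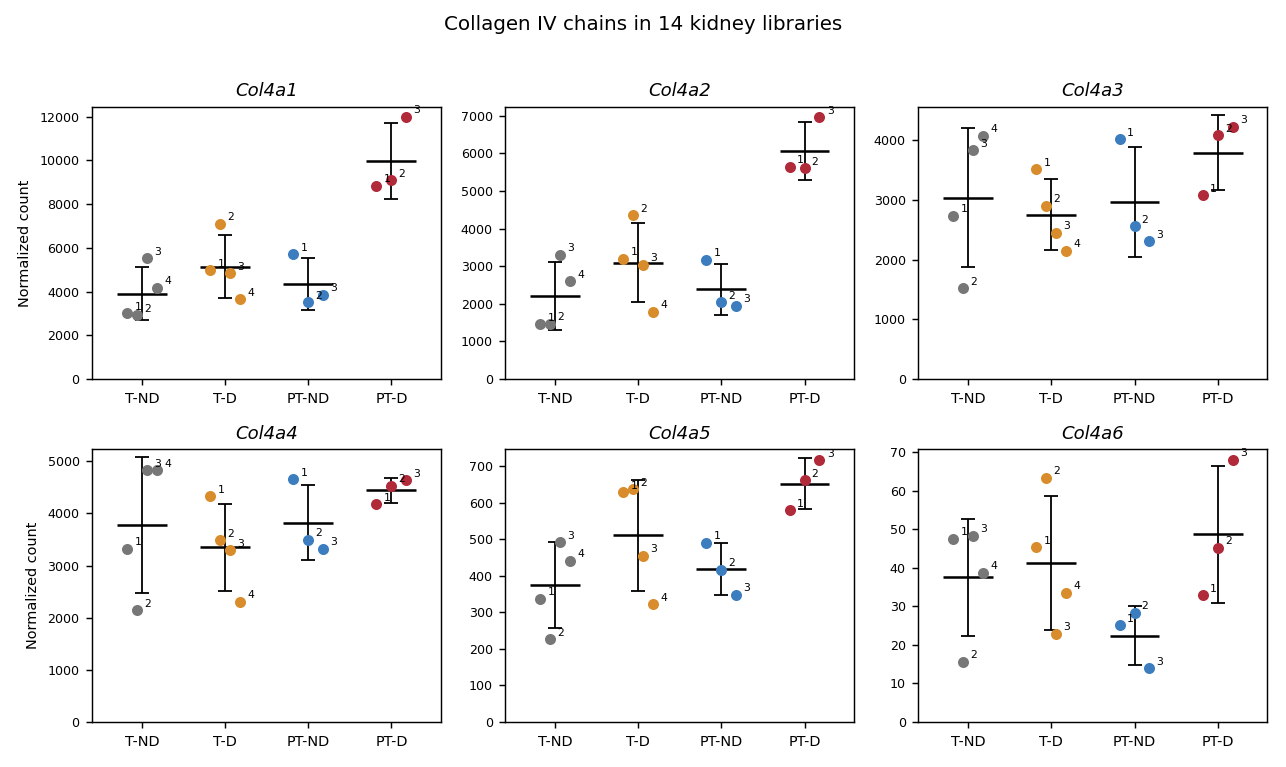
Each panel gives the normalized count of 1 collagen IV chain (vertical axis) in the 14 libraries by group, with replicate numbers beside the points, and horizontal lines and bars for mean and SD (n = 4, 4, 3 and 3). For Col4a1 and Col4a2 the PT-D points lie apart from all others, between 8849 and 11989 for Col4a1, and for Col4a3 and Col4a4 the 4 groups overlap.

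The chains of the mature glomerular network did not pass the test against T-ND. Col4a3 had normalized counts of 2736, 1516, 3829.7 and 4071 in T-ND and 3076, 4078 and 4218 in PT-D, and the log2 fold change was 0.31 (SE 0.29, adjusted p = 0.544). Col4a4 had 3316, 2137, 4829 and 4824 in T-ND and 4175, 4524 and 4636 in PT-D, giving a log2 fold change of 0.23 (SE 0.25, adjusted p = 0.612). T-ND replicate 2 was the lowest library for both genes, and T-ND replicates 3 and 4 reached the PT-D range or beyond it. Col4a5, the X-linked partner of these chains, had 337, 227, 492 and 442 in T-ND and 579, 662 and 717 in PT-D, where the groups did not overlap, and its log2 fold change was 0.79 (SE 0.23, adjusted p = 0.0807). Against PT-ND, where it ranged from 348 to 490.2, Col4a5 passed on adjusted p alone at 0.64 (SE 0.17, adjusted p = 0.0326). Col4a6, which was named after its values were seen, had only 32.8 to 68.0 normalized counts in PT-D and 13.8 to 28.3 in PT-ND.

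The balance of the 2 networks is given as a description, since the ratio was chosen after the values were seen and was not tested. The summed level per kilobase of Col4a1 and Col4a2 over that of Col4a3 and Col4a4 was 1.07, 1.76, 1.49 and 1.11 in T-ND, 1.52, 2.61, 2.01 and 1.77 in T-D, 1.49, 1.34 and 1.51 in PT-ND and 2.92, 2.48 and 3.11 in PT-D. T-D replicate 2 reached into the PT-D range, and every other library of the other groups lay under it. Within the pairs the ratios moved less. Col4a1 over Col4a2 per kilobase lay between 1.495 and 1.99 in all libraries, and Col4a3 over Col4a4 between 0.796 and 1.07.

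Podocyte and endothelial marker sums of each PT-D library exceeded those of all T-ND libraries, as did Col4a1. Among the PT-D mice the order was the reverse. Col4a1 was 8849, 9081 and 11989 in replicates 1, 2 and 3. Their podocyte sums were 14620, 13790 and 11270, and their endothelial sums 14900, 13060 and 11280. PT-ND replicate 1 lay inside the PT-D range for both sums, and T-D replicate 3 for the podocyte sum. The summed normalized count of 8 podocyte markers was 5477 to 8323 in T-ND, 3842 to 11430 in T-D, 6433 to 11330 in PT-ND and 11270 to 14620 in PT-D. Against T-ND all 8 were fitted higher in PT-D, and 4 of them (Nphs1, Synpo, Wt1 and Ptpro) were called. The sum of 10 endothelial markers was 9273 to 9985 in T-ND, 5210 to 10050 in T-D, 7287 to 12210 in PT-ND and 11280 to 14900 in PT-D, where 8 of 10 were fitted higher than in T-ND and Cdh5 was called. The sum of 10 fibroblast and pericyte markers was 3347 to 3703 in T-ND, 2702 to 4343 in T-D, 3305 to 4850 in PT-ND and 4938 to 5969 in PT-D, with 7 of 10 fitted higher than in T-ND and none called by edgeR. None of the podocyte and endothelial markers was at 0 in any library. Leukocyte markers summed to 1398 to 3051 in T-ND, 1981 to 4841 in T-D, 2405 to 3118 in PT-ND and 2944 to 3849 in PT-D, and Ptprc was called in PT-D against T-ND. Tubular injury markers summed to 4910 to 9558 in T-ND, 6885 to 13000 in T-D, 5935 to 7114 in PT-ND and 8862 to 13630 in PT-D, with none called in PT-D against T-ND by edgeR. For both lists T-D reached into or past the PT-D range. Adipocyte markers varied widely within each group, from 8.38 to 4578 in T-ND and from 8.208 to 4939 in PT-D. In PT-D against PT-ND, edgeR called more markers of these lists, all higher, where 4.95% of all genes were called in either direction. They were Havcr1, Lcn2 and Krt20 of the injury list and Cdh5, Kdr, Flt1 and Egfl7 of the endothelial list. Nphs1 and Synpo of the podocyte list, Pdgfrb of the fibroblast and pericyte list and Adgre1 of the leukocyte list were also called. The part of these markers in the differences of the matrix genes was not tested.

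Collagens XV and XVIII, the multiplexins, are basement membrane collagens whose ends are cleaved into endostatin-like fragments. Col15a1 (chr4:47207582-47313179, plus strand) had normalized counts of 138, 148, 191 and 193 in T-ND, 256, 283, 167 and 79.8 in T-D, 383, 167 and 130.4 in PT-ND and 266, 432 and 355 in PT-D. All PT-D libraries lay above all T-ND libraries, and PT-ND replicate 1 and T-D replicate 2 lay inside the PT-D range. The log2 fold change against T-ND was 1.06 (SE 0.21, adjusted p = 0.034), and with the library-name suffix as a covariate it was 0.97, under the limit for a call. Col18a1 had 1800.1, 1647, 2743 and 2462 in T-ND and 3678, 4126 and 4002 in PT-D, and the PT-D libraries were the 3 highest of the 14. Its log2 fold change of 0.86 (SE 0.18, adjusted p = 0.0422) against T-ND and 0.74 (SE 0.15, adjusted p = 0.0135) against PT-ND passed on adjusted p alone. For Col18a1, 12.7% of the exon length overlaps another gene.

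Fibronectin, a glycoprotein that bridges cells and collagen and is widely used as a fibrosis marker, rose in PT-D against T-ND. Fn1 had normalized counts of 427, 653, 528 and 489 in T-ND, 754, 860.3, 466 and 369 in T-D, 1950.4, 710.3 and 636 in PT-ND and 792, 1359 and 1509.8 in PT-D. PT-D lay above T-ND in every library, but PT-ND replicate 1 was the highest of all 14 and T-D replicate 2 lay above PT-D replicate 1. On the log2 scale the fold change was 1.21 (SE 0.22, adjusted p = 0.0302) against T-ND, 0.99 (SE 0.29, adjusted p = 0.0977) against T-D and 0.15 (SE 0.39, adjusted p = 0.837) against PT-ND. In PT-ND against T-ND it was 1.07 (SE 0.34, adjusted p = 0.354), and without PT-ND replicate 1 it was 0.34. In the fit of all 14 libraries, Fn1 against T-ND had an adjusted p of 0.0777.

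Sparc had normalized counts of 2479, 2767, 1959.9 and 2233 in T-ND and 4299, 4164 and 3571 in PT-D, with no overlap. Its log2 fold change of 0.76 (SE 0.15, adjusted p = 0.0341) passed on adjusted p alone. In PT-ND it ranged from 2418 to 3437, below all of PT-D, and the log2 fold change of PT-D against PT-ND was 0.47 (SE 0.17, adjusted p = 0.0913). Sparc had 3335, 3814, 3362 and 2068 in T-D, where replicate 2 lay inside the PT-D range. Collagen XIV binds the surface of collagen I fibrils, and its gene Col14a1 (chr15:55171140-55384199, plus strand) had 699, 535, 624 and 625 in T-ND, 727, 1036, 594 and 299.9 in T-D, 1368, 524 and 579 in PT-ND and 1110.0, 1754 and 1064 in PT-D. T-ND was tight, PT-D lay above it throughout, and PT-ND replicate 1 lay inside the PT-D range. The log2 fold change was 1.07 (SE 0.18, adjusted p = 0.0279) against T-ND and 0.67 (SE 0.34, adjusted p = 0.218) against PT-ND. In the fit of all 14 libraries its adjusted p against T-ND was 0.1, and Col15a1 had 0.128.

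**Figure D3:**
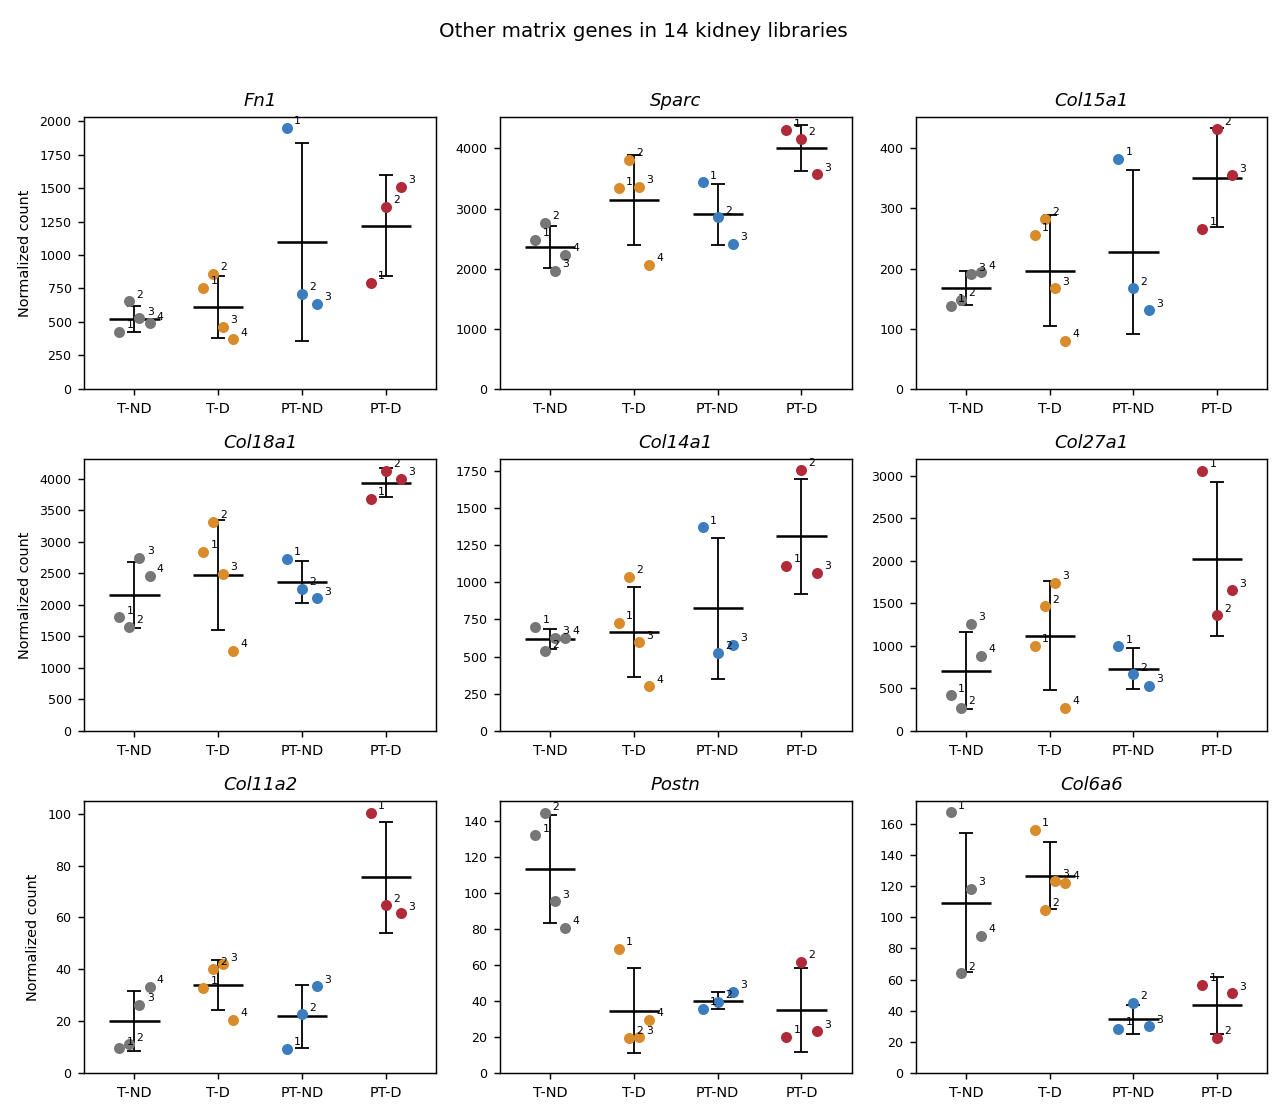
Each panel gives the normalized count of 1 gene (vertical axis, from 0) in the 14 libraries by group, with replicate numbers, and lines and bars for mean and SD (n = 4, 4, 3 and 3). For Fn1 the highest point is PT-ND replicate 1 at 1950.4, for Postn the 4 T-ND points are the highest, and for Col6a6 the 6 preterm points are the lowest.

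Diabetes among preterm mice was addressed by PT-D against PT-ND, where 5 of 52 genes rose (Col4a1, Col4a2, Col27a1, Col13a1 and Col11a2) and none fell. The share of 9.62% stood against 4.95% of all genes called, with 2.96% called higher and 1.99% lower. On adjusted p alone 7 of 52 passed, against 12.9% of all genes, so that without the limit on fold change the share was near the background. The median log2 fold change was 0.44 against 0.05 for all genes, with 36 of 52 fitted higher (69.2%, against 52.5%). For 13 of 52 genes every PT-D library lay above every PT-ND library, as for 18.7% of all genes, and for 1 below, as for 15.8%. At an unadjusted p under 0.05, 15 were higher and 0 lower, against 15.6% and 13.5%.

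Collagen XXVII is a fibrillar collagen best known from cartilage. Col27a1 had normalized counts of 419, 269, 1259 and 884 in T-ND, 1004, 1467, 1743 and 270.3 in T-D, 996, 666 and 528 in PT-ND and 3057, 1361 and 1656 in PT-D. PT-D replicate 1 was the highest of all, and the PT-D range overlapped with T-D but with neither group without diabetes. On the log2 scale the fold change was 1.47 (SE 0.31, adjusted p = 0.0143) against PT-ND and 1.51 (SE 0.48, adjusted p = 0.0975) against T-ND. Without PT-ND replicate 2 or 3 the adjusted p against PT-ND was 0.0593 and 0.0628, and in the fit of all 14 libraries it was 0.114. Against T-ND, Col27a1 was called with no count filter (adjusted p = 0.0387 by edgeR) and without T-ND replicate 3 (0.0259).

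Col11a2, a chain of the cartilage-type collagen XI, was low, with 9.51, 10.96, 26.2 and 33.3 normalized counts in T-ND, 32.8, 40.2, 41.9 and 20.6 in T-D, 9.39, 22.6 and 33.5 in PT-ND and 100.3, 64.7 and 61.6 in PT-D. The PT-D libraries were the 3 highest of the 14. Its log2 fold change was 1.79 (SE 0.47, adjusted p = 0.0312) against PT-ND and 1.90 (SE 0.46, adjusted p = 0.0541) against T-ND. Against T-ND it was called by DESeq2 (adjusted p = 0.00177) and in 4 of the 6 other alternative fits with all 7 libraries, and without T-ND replicate 3 (0.0334). The call against PT-ND was lost without PT-D replicate 1 (adjusted p = 0.0699 by edgeR), PT-D replicate 3 (0.0566) or PT-ND replicate 2 (0.0963). Collagen XIII is a transmembrane collagen of cell-matrix contacts, and Col13a1 had 23.99, 11.3 and 15.0 in PT-ND and 41.0, 56.4 and 45.6 in PT-D. It ranged from 11.9 to 36.7 in T-ND and from 2.57 to 38.995 in T-D. PT-D lay above every other library, and T-D replicate 4 was the lowest at 2.57. The log2 fold change against PT-ND was 1.498 (SE 0.43, adjusted p = 0.0445), and that call was kept in 1 of the 6 refits that left out a library, the one without PT-ND replicate 1. In the fit of all 14 libraries its adjusted p was 0.159.

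The interstitial collagens and proteoglycans differed widely among the 3 PT-D mice. Col1a1, which encodes the alpha1 chain of collagen I, had normalized counts of 85.5, 50.2, 60.8 and 61.3 in T-ND, 125, 140.1, 69.3 and 21.9 in T-D, 154, 54.3 and 62.3 in PT-ND and 52.9, 253 and 171 in PT-D. PT-D replicate 1 lay inside the T-ND range and replicates 2 and 3 above it. On the log2 scale the fold change was 1.30 (SE 0.44, adjusted p = 0.114) against T-ND, 0.83 (SE 0.56, adjusted p = 0.407) against T-D and 0.81 (SE 0.53, adjusted p = 0.345) against PT-ND, and none passed. Without PT-D replicate 1 the value against T-ND was 1.71 with an adjusted p of 0.0375, the only library whose absence gave a call. DESeq2 also called Col1a1 against T-ND, with an adjusted p of 0.0321.

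Col1a2, Col3a1 and Lum, which were named after their values were seen, and Dcn and Bgn shared this split of the PT-D mice. Col3a1 had 191, 854 and 452 in PT-D against 331 to 419 in T-ND, and Col1a2 had 371, 1099 and 703 against 545 to 626. Dcn had 476, 1436 and 549 against 614 to 731, Bgn 2099.5, 5592 and 3079 against 2883 to 3544, and Lum 13.68, 63.9 and 35.2 against 26.2 to 59.1. For all 5 genes PT-D replicate 1 was the lowest PT-D library and lay under every T-ND library, and replicate 2 was above every T-ND library. Of the fibroblast and pericyte markers, Pdgfra had the same split (284, 1047 and 730, against 460 to 548 in T-ND). Acta2 did not, with 1113, 572 and 545 in PT-D. Both were named after their values were seen. Adipocyte markers summed to 8.208, 4939 and 15.99 in these PT-D mice. The part of these markers in the split was not tested. None of the 4 proteoglycan genes passed in any comparison by edgeR, and their log2 fold changes in PT-D against T-ND lay between −0.03 (Lum) and 0.43 (Vcan). For Dcn, PT-ND lay above T-ND in every library (1100.4, 791 and 841 against 728, 614, 731 and 669), at a log2 fold change of 0.41 (SE 0.15, adjusted p = 0.398). Vcan ranged from 11.4 to 165 within T-D alone.

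**Figure D4:**
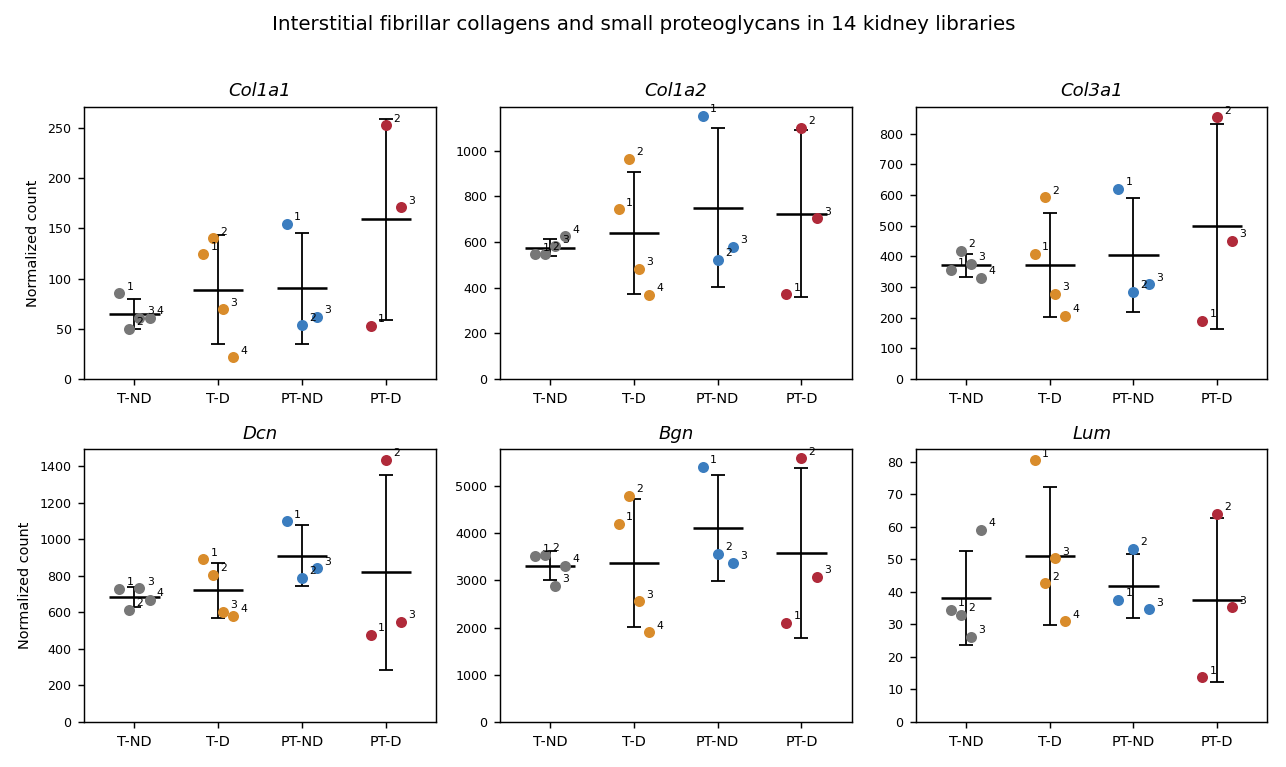
Each panel gives the normalized count of 1 interstitial matrix gene (vertical axis, from 0) in the 14 libraries by group, with replicate numbers, and lines and bars for mean and SD (n = 4, 4, 3 and 3). In every panel PT-D replicate 2 lies high and PT-D replicate 1 low, as for Col1a1 at 253 and 52.9.

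Col1a2 stood above Col1a1 per kilobase in all 14 libraries, by a ratio that varied. It lay between 2.13 and 8.73, with 3.64, 2.26 and 2.13 in PT-D and 3.31 to 5.67 in T-ND. T-D replicate 4, where Col1a1 had 21.9 normalized counts, gave the highest ratio. For the microfibrillar collagen VI, Col6a1 had 147, 155, 212 and 207 in T-ND, 438, 173 and 237 in PT-ND and 195, 379.9 and 246 in PT-D, at a log2 fold change of 0.59 (SE 0.25, adjusted p = 0.179) in PT-D against T-ND.

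A pair of genes stood lower instead, without passing the test. Periostin is a secreted protein that binds collagen and marks activated fibroblasts. Postn had normalized counts of 132, 144, 95.3 and 80.6 in T-ND, 69.1, 19.5, 19.8 and 29.6 in T-D, 35.5, 39.6 and 45.0 in PT-ND and 20.1, 61.7 and 23.2 in PT-D. Every T-ND library lay above every library of the other groups. The log2 fold change was −1.69 (SE 0.42, adjusted p = 0.0587) in PT-D, −1.73 (SE 0.42, adjusted p = 0.167) in T-D and −1.497 (SE 0.29, adjusted p = 0.131) in PT-ND, each against the same 4 T-ND libraries. DESeq2 called Postn in all 3 of these comparisons. With no count filter edgeR called it in PT-D (adjusted p = 0.0261) and in PT-ND (0.0455). With a library left out, edgeR called it in T-D without T-D replicate 1 (0.0384) and in PT-D without T-ND replicate 3 (0.0382). Its interaction was 1.53 (SE 0.66, adjusted p = 0.164).

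Col6a6, a long alpha3-like chain of collagen VI, divided the mice by birth. It had 168, 63.9, 118 and 88.1 in T-ND, 156, 105, 123 and 122 in T-D, 28.2, 45.2 and 29.999 in PT-ND and 56.5, 22.6 and 51.2 in PT-D. All 6 preterm libraries lay under all 8 term libraries. The log2 fold change was −1.66 (SE 0.37, adjusted p = 0.185) in PT-ND against T-ND, −1.34 (SE 0.41, adjusted p = 0.0937) in PT-D against T-ND and −1.55 (SE 0.35, adjusted p = 0.0706) in PT-D against T-D. In PT-D against PT-ND it was 0.33 (SE 0.44, adjusted p = 0.674). DESeq2 called it in the 3 comparisons of preterm with term mice, and edgeR called it in PT-D against T-D in the fit of all 14 libraries (adjusted p = 0.0345) and with no count filter (0.00928). The sum of 6 urothelium markers, the epithelium that lines the renal pelvis, was 509.1 to 1209 in T-ND, 638.6 to 1316 in T-D, 125.2 to 970.4 in PT-ND and 62.02 to 473.2 in PT-D, and its part in this was not tested.

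None of the 5 lysyl oxidase genes passed in any comparison by edgeR. Loxl1 had 225, 281, 429 and 441 normalized counts in T-ND and 297, 641 and 524 in PT-D, or 0.49 (SE 0.29, adjusted p = 0.328) as log2 fold change. Loxl2, which acts on basement membrane collagen IV, had 107, 149.8, 160.3 and 149 in T-ND, 193, 275, 210.3 and 135 in T-D and 164, 278 and 207 in PT-D. PT-D lay above T-ND throughout, at 0.60 (SE 0.23, adjusted p = 0.147), and 22.7% of its exon length overlaps other genes. Loxl4 had 17.3, 63.2 and 99.96 in PT-D and 125, 53.0, 68.1 and 84.9 in T-ND, at −0.46 (SE 0.51, adjusted p = 0.616). Lox, named after its values were seen, had 110.4, 521 and 276 in PT-D against 101 to 169.8 in T-ND, and there too PT-D replicate 1 lay within the T-ND range.

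The remaining genes were lower or less even. Col8a1, a short-chain collagen of vessel walls, had 83.2, 137, 152 and 161 in T-ND and 166, 178 and 182 in PT-D, at 0.38 (SE 0.24, adjusted p = 0.346). Col16a1 had 112, 123, 120.5 and 120.4 in T-ND and 70.2, 130.2 and 163 in PT-D, at 0.02 (SE 0.27, adjusted p = 0.98). Col23a1, a transmembrane collagen, had 69.9, 105 and 71.5 in PT-ND and 28.3, 57.2 and 68.0 in PT-D, and the log2 fold change was −0.68 (SE 0.38, adjusted p = 0.267). Col20a1, named after its values were seen, had 13.1, 24.7, 32.5 and 27.9 in T-ND and 119, 92.5 and 41.6 in PT-D, at 1.77 (SE 0.42, adjusted p = 0.0541). The following genes were also named after their values were seen. Col5a1, whose chain helps to start collagen fibrils, had 140.2, 139.7, 178 and 175 in T-ND and 145, 310.0 and 239.9 in PT-D, at 0.54 (SE 0.25, adjusted p = 0.218). Col6a2 had 88.0 to 117 in T-ND and 99.4, 235 and 182 in PT-D, and Col6a3 had 120.0 to 244 and 213, 429.6 and 236. For these 3 genes PT-D replicate 2 was the highest PT-D library. Col7a1, the anchoring fibril collagen, had 54.2, 44.1 and 12.7 in PT-ND and 76.6, 120.4 and 132 in PT-D, at 1.56 (SE 0.47, adjusted p = 0.0505). Col12a1 had 98.5 to 151 in T-ND and 144 to 165 in PT-D, and Loxl3 26.5 to 52.7 and 42.9 to 107. Col5a2, Col5a3, Col6a4, Col6a5, Col9a3, Col17a1, Col24a1, Col25a1 and Col26a1 had at most 86.0 normalized counts in the T-ND and PT-D libraries, the value of Col26a1 in T-ND. At the lower end, Col28a1, Col11a1, Col8a2, Col22a1 and Col2a1 had 3 counts or fewer in 8 to 13 of the 14 libraries, where this depth shows little. Col22a1 had no count in any T-ND library, which allows up to 3 counts in each, and 25 counts in the library with the most, PT-D replicate 2. The counting errors of such genes are large and no fold change is given for them.

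Collagen chains are hydroxylated, folded and trimmed by dedicated enzymes and chaperones, and 26 of 27 listed genes of these were over the count limit. In PT-D against T-ND none was called by edgeR, 13 were fitted higher and 13 lower, and the median log2 fold change was −0.02 against 0.03 for all genes. The median of the matrix genes in the same fit was 0.55. The highest of the list per kilobase, P4hb, a subunit of prolyl 4-hydroxylase, had 10893 to 13835 normalized counts in T-ND and 9224 to 11332 in PT-D, at −0.27 (SE 0.14, adjusted p = 0.258). In PT-D against PT-ND, Colgalt2, a collagen galactosyltransferase, rose from 58.4, 53.2 and 58.8 to 154, 137 and 119 normalized counts, at 1.27 (SE 0.26, adjusted p = 0.0141). It had 217, 115, 146 and 269.8 in T-ND, a range that holds the PT-D values, and 135, 14.6, 36.6 and 11.6 in T-D. Against PT-ND 3 genes of the list fell. Crtap, a partner of prolyl 3-hydroxylase, had 1161, 1126 and 1486 in PT-ND and 378, 697 and 549 in PT-D, or −1.22 (SE 0.22, adjusted p = 0.00846) as log2 fold change, and ranged from 572 to 993 in T-ND and from 643 to 853 in T-D. P3h4 changed by −1.49 (SE 0.32, adjusted p = 0.0158), and Pcolce2, an enhancer of procollagen C-proteinase, by −1.79 (SE 0.45, adjusted p = 0.0267). Crtap and Colgalt2 were also called in the interaction, at −1.17 (SE 0.30, adjusted p = 0.0377) and 3.18 (SE 0.82, adjusted p = 0.0377).

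Of 10 collagen receptor genes, 9 could be fitted in PT-D against T-ND. All 9 were fitted higher, with a median log2 fold change of 0.70, and none was called by edgeR. Itgb1, the beta1 integrin subunit and the highest of the list per kilobase, had 4564, 4489, 4599.6 and 4164 normalized counts in T-ND and 5189, 5563 and 5791 in PT-D, at 0.30 (SE 0.11, adjusted p = 0.138). Itga2, whose product pairs with it as a collagen receptor, rose in PT-D against PT-ND from 57.4, 53.2 and 57.7 to 109, 209.9 and 165, at 1.52 (SE 0.30, adjusted p = 0.0112).

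**Figure D5:**
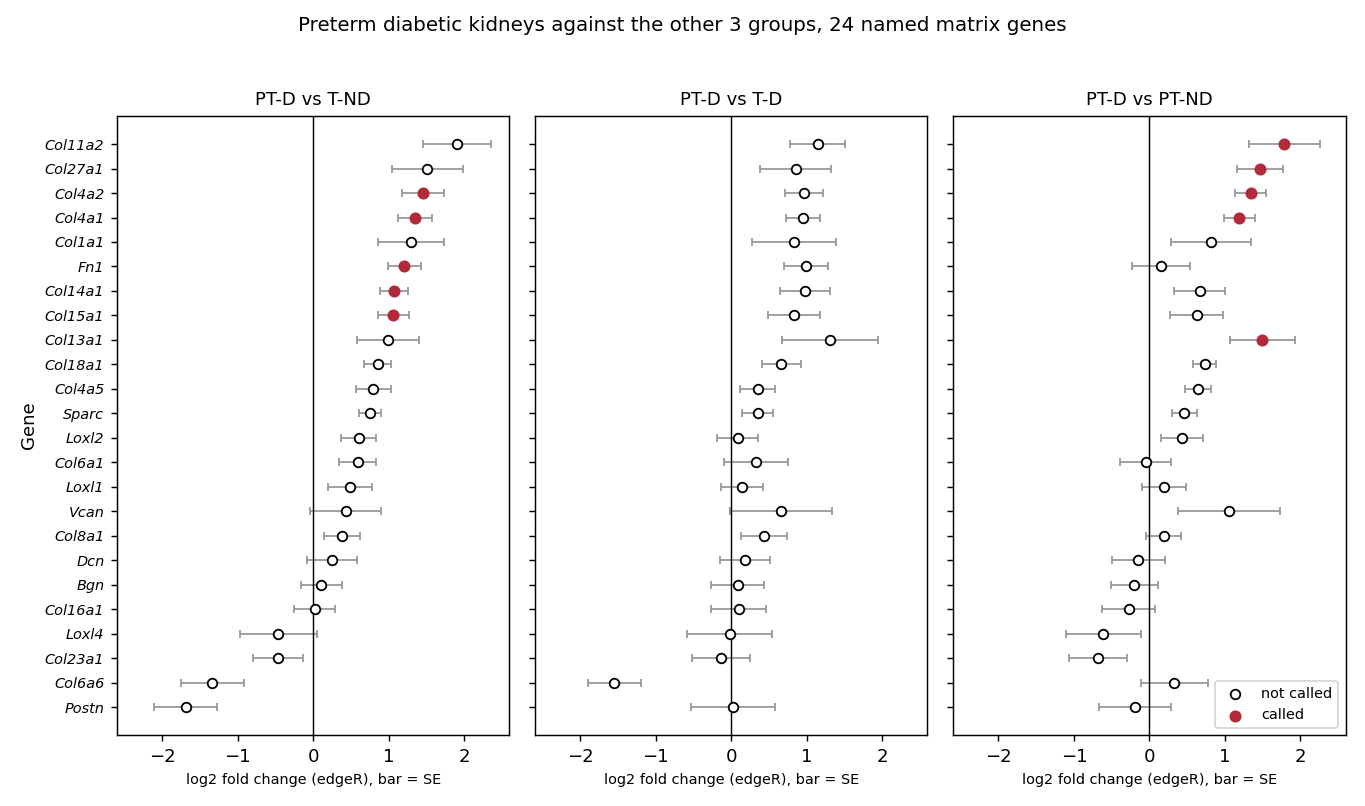
Each panel gives the edgeR log2 fold change of PT-D against 1 other group (horizontal axis) for the 24 matrix genes named by rule, ordered by the value against T-ND, with bars for SE and filled points for called genes. Col4a1 and Col4a2 are filled in the panels against T-ND and PT-ND, and no point is filled against T-D.

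Preterm birth among diabetic mice was addressed by PT-D against T-D. No matrix gene was called by edgeR, against 0.193% of all genes by the same test, and DESeq2 called 3. The share of all genes called by DESeq2 is not given here, so that count is not read against a background. At an unadjusted p under 0.05, 13 genes were higher and 1 lower, against 11.4% and 10.9% of all genes. The median log2 fold change was 0.44 against 0.06 for all genes, and 41 of 52 were fitted higher. Col4a1 and Col4a2 lay above every T-D library, at 0.95 (SE 0.22, adjusted p = 0.0716) and 0.96 (SE 0.25, adjusted p = 0.0838). Col14a1 did too, at 0.98 (SE 0.33, adjusted p = 0.121). For 6 of 52 genes in all the groups were apart in this direction and for 1 in the other, against 12.4% and 10.6% of all genes. The adjusted p of Col4a1 ranged from 0.0566 to 0.262 when single libraries were left out.

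Diabetes among term mice (T-D against T-ND) and preterm birth without diabetes (PT-ND against T-ND) gave no called matrix gene by edgeR either, against 0.0673% and 0.0809% of all genes. At an unadjusted p under 0.05, 0 genes were higher and 1 lower (Postn) in T-D, against 5.57% and 6.2% of all genes. In PT-ND 3 were higher and 2 lower, against 5.55% and 5.15%. Groups were apart for 0 genes higher and 1 lower in T-D, against 2.9% and 3.76% of all genes, and for 3 higher and 2 lower in PT-ND, against 5.48% and 5.54%. DESeq2 called 1 gene in T-D and 2 in PT-ND, given here without the share of all genes it called. The medians were 0.15 and 0.16, against −0.02 and −0.00053 for all genes. Col4a1 had a log2 fold change of 0.38 (SE 0.24, adjusted p = 0.556) in T-D and 0.16 (SE 0.24, adjusted p = 0.841) in PT-ND. Without T-D replicate 4, the library that stood apart, the median of T-D against T-ND was 0.33, and that of PT-D against T-D was 0.29. These comparisons share the T-ND libraries with PT-D against T-ND.

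Whether the difference with diabetes was larger in preterm than in term mice was tested as an interaction over all 14 libraries. No matrix gene was called by edgeR or DESeq2, against 4.45% of all genes by edgeR, and 3 were higher and 0 lower at an unadjusted p under 0.05, against 12.2% and 12.3%. The median was 0.29 against 0.07 for all genes, and 0.10 without T-D replicate 4. Without T-D replicate 1, Postn was called higher. Col4a1 had 0.80 (SE 0.36, adjusted p = 0.186) and Col4a2 0.86 (SE 0.43, adjusted p = 0.239). Col4a1 and Col4a2 were called in PT-D against PT-ND and not in T-D against T-ND, but the difference between these contrasts did not pass.

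Within the libraries without the suffix a, the median log2 ratio of the 52 genes was 0.58 in PT-D against T-ND, 0.75 against T-D and 0.47 against PT-ND. With the suffix there was 1 PT-D library, replicate 1, and the medians were 0.28, −0.27 and 0.19. In T-D against T-ND the median was 0.523 with the suffix, where T-D had 1 library, and −0.0608 without it. In PT-ND against T-ND it was 0.158 with the suffix and 0.0466 without. Col4a1 was higher in PT-D on both sides, by 1.58 with and 1.12 without the suffix against T-ND, and so was Col4a2, by 1.95 and 1.09. Fn1 gave 0.55 and 1.495, Col14a1 0.85 and 1.17, and Col15a1 0.90 and 1.03. Col1a1 changed direction, at −0.36 with and 1.79 without the suffix, and Col3a1 likewise, at −1.02 and 0.89. For Postn the PT-D value was the lower on both sides, at −2.75 and −1.04, and so was Col6a6, at −1.03 and −1.47.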

How the data were processed

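Whole-kidney RNA of 14 mice was sequenced from unstranded mRNA libraries. The authors trimmed the reads, aligned them to GRCm39 by STAR, and deposited its raw read counts for each gene of GENCODE release 36, in which only reads with 1 mapped place and 1 gene are counted. The unstranded count column was used, at 16697246 to 28673176 counts per library. Symbols, exon lengths and start sites are those of GENCODE release 39, and 56236 of 56980 gene IDs matched without their version.

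Genes with a total above 10 were fitted in edgeR 4.0.16 (R 4.3.3) with TMM normalization and the quasi-likelihood test, on the libraries of the 2 groups compared, or on all 14 for the interaction. Normalized counts are counts divided by TMM effective library sizes and scaled to the mean library. SEs were taken from the F statistic. The study used DESeq2 with the same thresholds, and DESeq2 1.42.0 was run as an alternative. The procedure was tested on simulated data. P-values measure the spread between these mice, 1 library each. Replicate numbers did not pair the libraries.

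The members, gene lists and tests were chosen with earlier results of these data known. Named by rule were genes called in any comparison, Col1a1 and Fn1, the highest per length in each class, and the 3 of at least 50 normalized counts with the smallest p in each direction and pair of groups. With genes that had no count in a group set to a bound of 3 counts per library, the medians were 0.547, 0.443, 0.126, 0.442 and 0.145 in PT-D vs T-ND, PT-D vs T-D, T-D vs T-ND, PT-D vs PT-ND and PT-ND vs T-ND. Alternatives were RLE normalization, the filterByExpr filter, no count filter, adjusted p alone, the suffix as a covariate, a replicate block, a fit of all 14 libraries, and each library left out.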

Additional observations from a re-analysis of the deposited data

How the results depend on the processing

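Medians of the 52 genes kept their direction in every refit for PT-D against T-ND (0.412 to 0.781), PT-D against T-D (0.248 to 0.732) and PT-D against PT-ND (0.255 to 0.746), while those of T-D against T-ND (−0.0859 to 0.335) and PT-ND against T-ND (−0.101 to 0.238) came out below 0 in some. The interaction median ranged from 0.101 to 0.614. Counts of called genes moved more. They are given without the share of all genes called under each setting, so they are not read against a background. In PT-D against T-ND (5 called) DESeq2 gave 11, no count filter 9, and leaving out single libraries 0 to 10. In PT-D against PT-ND (5) DESeq2 gave 8, no count filter 8, the fit of all 14 libraries 3, and leaving out libraries 2 to 8 (8 without PT-ND replicate 1, 2 without PT-ND replicate 2, 3 without PT-ND replicate 3). In PT-D against T-D (0) DESeq2 gave 3, no count filter 2 and the fit of all 14 libraries 1. In T-D against T-ND (0) DESeq2 gave 1, and leaving out libraries 0 to 1. In PT-ND against T-ND (0) DESeq2 gave 2 and no count filter 1, and in the interaction (0) leaving out libraries gave 0 to 1. The cause was not tested. Of 565 refits of single genes, 496 kept direction and side of the threshold, 45 lost a call, 24 gained one and 0 reversed. Most of these refits were of genes not called at first, which had no call to lose. In PT-D against T-ND, of the 7 fits with a library left out, Fn1 kept its call in 3. Col4a1, Col14a1 and Col15a1 each kept theirs in 2, and Col4a2 in 1. With the replicate number as a block, 2 genes were called in PT-D against T-ND (Col4a1 and Col4a2), and no other count of calls moved by more than 1.5 times. Same-numbered libraries correlated between −0.281 and 0.308 in their deviations from the group means, so the numbers were not taken as pairs. With 3 or 4 mice a group, genes with few counts have wide errors.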
